A study of Mus musculus with 8 samples.

Results

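Integrins and cadherins are the main surface receptors with which cells hold on to the matrix and to each other. They were read here as every probe set of the array with a single annotated symbol Itga, Itgb1 to Itgb8 or Cdh followed by its number or letter, a rule that uses names and no measured value. It took 93 of 45101 probe sets and 45 of 18194 genes with a single symbol. There were 16 integrin alpha genes with 36 probe sets, 8 integrin beta genes with 18 and 21 cadherin genes with 39.

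An integrin is a pair of one alpha and one beta subunit, and the pair decides which ligand is bound: alpha 5 with beta 1 binds fibronectin, alpha v with beta 3 or beta 5 binds vitronectin, alpha 6 with beta 1 or beta 4 binds laminin, and the beta 2 and beta 7 pairs serve leukocytes. Inside the cell the beta tail binds talin and kindlin, which tie it to actin. Classical cadherins bind their own kind on the next cell in the presence of calcium, and their tails hold catenins. Fibroblasts typically carry N-cadherin (Cdh2) and cadherin 11, and melanoma cells often carry N-cadherin with alpha v and alpha 4 integrins.

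Total RNA of 8 cultures was hybridized to Affymetrix 3′ expression arrays, 1 array each. The NIH3T3 PGC7 group held 3 arrays, an uncloned population, clone 1 and clone 2, set against 1 NIH3T3 control, and the B16F10 PGC7 group held clones 1 to 3, set against 1 B16F10 control. NIH3T3 cells are immortalized fibroblasts of mouse embryos, and B16F10 cells come from a mouse melanoma. PGC7 (also Stella, gene Dppa3), a protein of oocytes and germ cells that guards methylated DNA after fertilization, was brought in by virus. All cultures were kept in the same medium with serum. Each clone stands for 1 founder cell, and the genotype label calls the PGC7 samples PGC8 and not yet cloned where their titles name clones. The sources used here do not give whether controls carried an empty virus, nor which arrays were hybridized together, so the effects of line and of array batch cannot be told apart. The titles of the controls name no clone. In B16F10 the effects of PGC7 and of cloning therefore cannot be told apart, and in NIH3T3 only 1 PGC7 array is uncloned. Cloning thus also enters the comparison of the changes between the lines.

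Signals are MAS5 intensities in arbitrary units after each array was scaled to a trimmed mean of 500, and the number of arrays limits their precision. Correlations across tested probe sets were 0.962 to 0.978 among NIH3T3 PGC7 arrays and 0.912 to 0.92 between them and their control, 0.983 to 0.987 and 0.97 to 0.977 in B16F10, and 0.679 to 0.698 between the lines. The 16 fibroblast markers summed to 131530 to 147466 in NIH3T3 PGC7 arrays against 215178 in their control, and to 1864 to 2056 in B16F10 PGC7 arrays against 2706 in theirs. The 13 melanocyte markers summed to 706 to 914 in NIH3T3 PGC7 arrays against 1022, and to 132941 to 154509 in B16F10 PGC7 arrays against 113769, so both lines carried the markers of their names. Dppa3 itself (1424295_at) had 101, 29.7 and 55.4 in NIH3T3 PGC7 arrays (uncloned, clone 1, clone 2) against 69.8 in the control, and 70, 117 and 71 in B16F10 clones 1 to 3 against 23.5. The change was not called in NIH3T3 (log2 -0.28 ± 0.58, adjusted p = 0.802) or in B16F10 (log2 1.51 ± 0.58, adjusted p = 0.27). The sources used here do not say whether that probe set covers the viral copy, so it checks no label.

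Of the 45 genes, 27 had a probe set that passed the filter on low signals, 12 alpha, 7 beta and 8 cadherin genes, with 47 probe sets in all. The other 18 genes were not tested: 13 cadherins, the alpha genes Itga7, Itgal, Itgam and Itgax, and Itgb6. Of the 46 probe sets left out, 30 stayed under the filter signal of 49.3 on all 8 arrays, and 2 passed a signal of 100 on any array, both cadherins (Cdh26 and Cdh6). A gene is read below by its brightest tested probe set, and other probe sets are given where they differ. Changes are PGC7 minus control on the log2(signal + 9) scale with their standard error, tested with limma on all 8 arrays, with a call where the p-value, adjusted by Benjamini and Hochberg's method, was under 0.05 over all 25236 tested probe sets. On that scale changes of low signals are understated, and in RNA of a whole culture a lower signal per cell and fewer cells with the transcript cannot be told apart.

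The starts of 28 of the 45 genes were present in the RefSeq promoter table of build GRCm38.p6, and of the 9 genes called in NIH3T3 below, 3 were. Those 3 are shown because Itgb5 fell further than any other tested integrin gene while Itga5 and Itgb7 rose. Each runs 5′ to 3′ along the gene's strand from 250 bases before the start to 50 after it, with CG dinucleotides, the site of DNA methylation, in capitals. The Itgb5 stretch is chr16:33829415-33829714 (plus strand), the Itga5 stretch chr15:103366742-103367041 (minus strand) and the Itgb7 stretch chr15:102231886-102232185 (minus strand).
Itgb5: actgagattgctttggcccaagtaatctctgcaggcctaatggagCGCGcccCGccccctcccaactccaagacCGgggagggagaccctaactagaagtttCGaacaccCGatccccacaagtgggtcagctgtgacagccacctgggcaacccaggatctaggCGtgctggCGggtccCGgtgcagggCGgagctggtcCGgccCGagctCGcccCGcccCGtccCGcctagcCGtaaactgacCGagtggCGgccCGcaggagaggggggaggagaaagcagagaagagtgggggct
Itga5: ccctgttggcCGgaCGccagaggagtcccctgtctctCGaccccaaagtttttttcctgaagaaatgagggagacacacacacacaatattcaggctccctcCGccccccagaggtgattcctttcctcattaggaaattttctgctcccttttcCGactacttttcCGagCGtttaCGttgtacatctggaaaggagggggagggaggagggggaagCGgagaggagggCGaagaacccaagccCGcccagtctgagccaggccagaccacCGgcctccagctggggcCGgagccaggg
Itgb7: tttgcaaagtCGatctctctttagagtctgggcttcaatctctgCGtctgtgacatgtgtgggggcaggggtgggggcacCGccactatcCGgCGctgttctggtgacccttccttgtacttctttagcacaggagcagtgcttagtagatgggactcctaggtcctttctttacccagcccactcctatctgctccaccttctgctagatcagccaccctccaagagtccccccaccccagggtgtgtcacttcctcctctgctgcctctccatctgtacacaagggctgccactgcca
They hold 20, 13 and 5 CG dinucleotides, against a median of 7 over all 32851 promoter sequences of the table and a 10th to 90th percentile range of 1 to 31. The E-box CACGTG, searched on both strands, was in none of the 3 and in 7.15% of all promoters, and the AP-1 motif TGACTCA, also searched on both strands, was in none of the 3 and in 5.2%. Methylation was not measured in these samples.

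In NIH3T3 most tested integrin beta genes differed between PGC7 and control arrays. The signal of Itgb5 was far lower, while those of Itgb2, Itgb3, Itgb4 and Itgb7 were higher, and the widely shared partners Itgav and Itgb1 were not called. Among alpha subunits Itga6 and Itga5 rose, and among cadherins Cdh11 fell and Cdh13 rose. In all, 7 of the 27 tested genes were called higher and 2 lower, where 12.8% of all tested probe sets were called, 6.47% higher and 6.32% lower. By family, 2 alpha genes rose of 12, 4 beta genes rose and 1 fell of 7, and 1 cadherin rose and 1 fell of 8. The median change was 0.14 over alpha, 2.38 over beta and 0.41 over cadherin genes, against -0.07 over all tested probe sets. Taken over probe sets, it was 0.14 for the 22 alpha, 0.21 for the 13 beta and -0.11 for the 12 cadherin ones. The size of the beta median and the sign of the cadherin median thus depended on reading each gene by 1 probe set. The genes were chosen with earlier results of these arrays known, so these counts describe them.

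**Figure D1:**
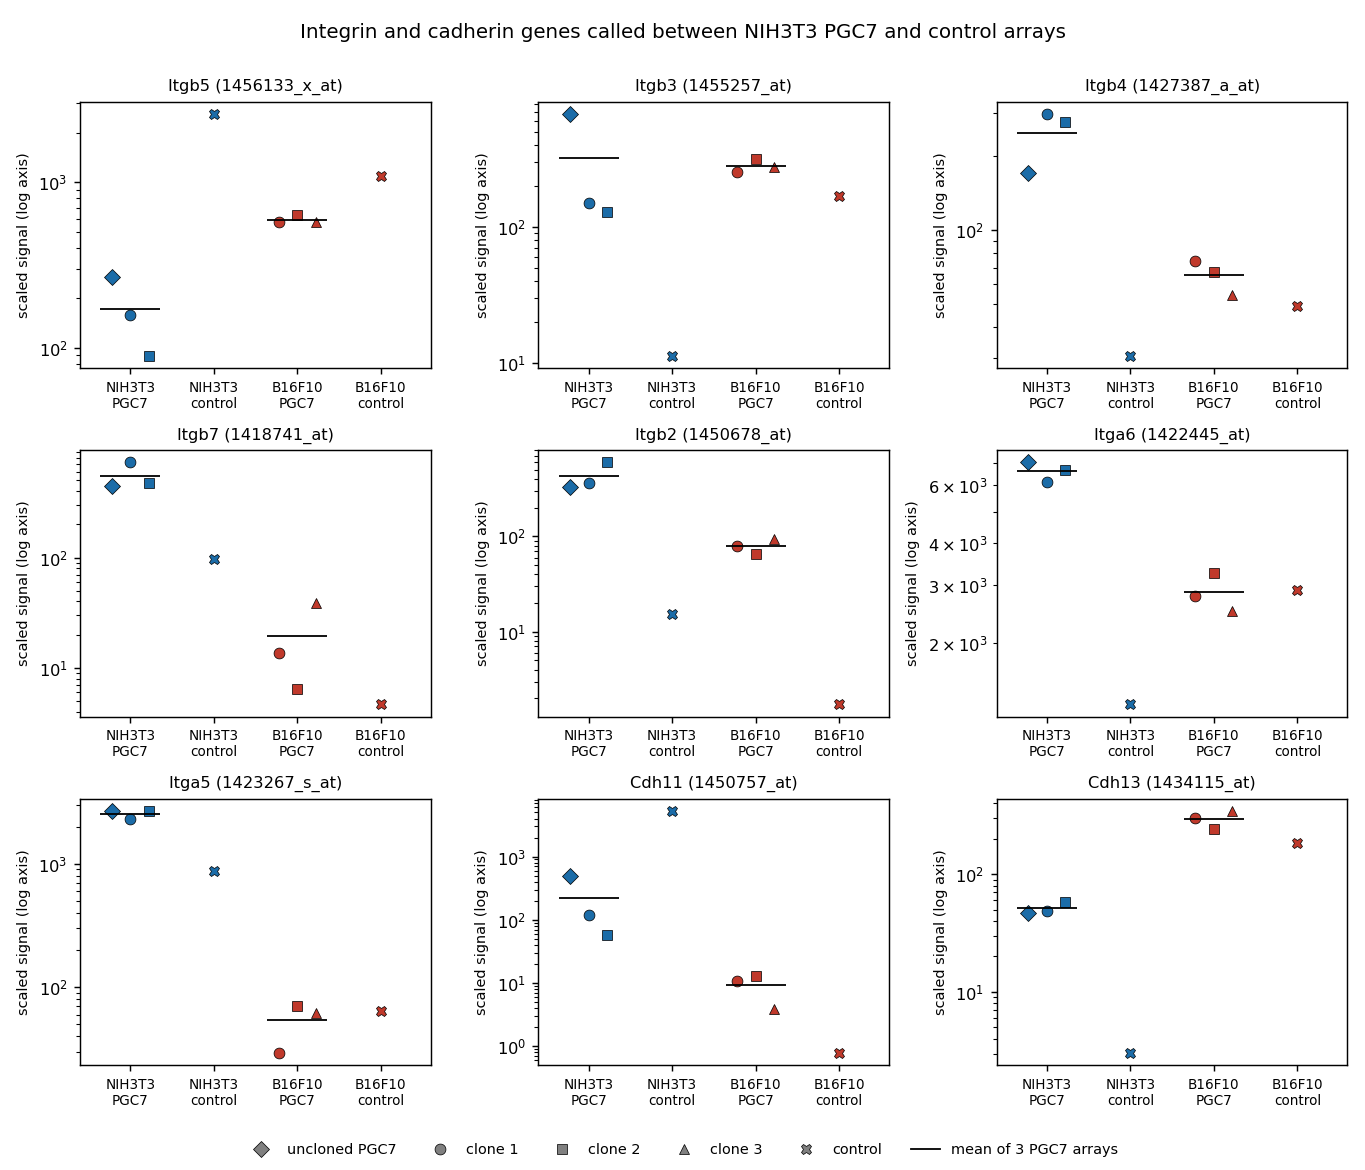
Scaled signal (log axis) of the 9 integrin and cadherin genes called between NIH3T3 PGC7 and control arrays, 1 panel a gene with its probe set. Points are arrays in 4 groups along the x axis and bars are the means of 3 PGC7 arrays. In each panel the NIH3T3 control lies outside the range of the 3 NIH3T3 PGC7 arrays, above it for Itgb5 and Cdh11 and below it for the other 7. The genes were chosen by their call on these arrays, so the place of the control is no separate test.

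Itgb5 codes for the beta 5 subunit, which pairs with alpha v alone. At 1456133_x_at its signal was 269 in the uncloned NIH3T3 PGC7 array, 157 in clone 1 and 89.2 in clone 2, against 2589.7 in the control. The change was -3.97 ± 0.45 (adjusted p = 0.00118). All 4 probe sets of the gene were called lower, with changes of -4.92, -5.87, -3.97 and -4.59, the first at 252, 132 and 26.2 in the uncloned array and clones 1 and 2 against 3288. In each of the 4 the uncloned array was the highest PGC7 array and clone 2 the lowest. The pair of probe sets whose names end in x_at can bind related transcripts, and both had a smaller fall than 1417534_at.

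Itgb3, the beta 3 subunit, is another partner of alpha v and pairs also with the platelet subunit alpha IIb. Its signal at 1455257_at was 681, 151 and 129.9 in the uncloned array and clones 1 and 2, against 11.3 in the control, a change of 3.62 ± 0.76 (adjusted p = 0.0182). The uncloned array was over 4 times as high as either clone, and all 3 were above the control. The second probe set, 1421511_at, had 344, 83.5 and 94.1 against 5.61 (change 3.36 ± 0.96, adjusted p = 0.054), so it was not called. The call at 1455257_at was lost in 3 of 16 alternatives, with the 4 NIH3T3 arrays alone (adjusted p = 0.0979), in the values as deposited (0.0516) and with no variance trend (0.0564).

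Itgb2, the beta 2 subunit that leukocytes pair with alpha L, alpha M or alpha X, had 327, 366 and 599 in the uncloned array and clones 1 and 2 against 15.4 in the control. The change, 4.12 ± 0.42 (adjusted p = 0.000689), had the highest value of the 27 genes and was called under all 16 alternatives tried. Its alpha partners Itgal, Itgam and Itgax did not pass the filter, with highest signals of 31.5, 30.2 and 53.5 on any array. The 10 leukocyte markers on the array summed to 528 to 722 in PGC7 arrays and 620 in the control, with 3 to 5 and 4 of them above the filter signal. Among these, Ptprc, the leukocyte common antigen gene, had 74.8, 231 and 175 in the uncloned array and clones 1 and 2 against 60.6 in the control (change 1.15 ± 0.73, adjusted p = 0.346). Cd68 was higher too, at 150, 70.1 and 108 against 48 (change 1.00 ± 0.43, adjusted p = 0.164). The other tested markers, Laptm5 and Csf1r, had changes of -0.71 and -0.15, and none of the 4 was called. The part of leukocytes in the Itgb2 signal was not tested.

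The beta 4 subunit pairs with alpha 6 alone and anchors epithelial cells to laminin in hemidesmosomes. Itgb4 (1427387_a_at) had 170.4, 296 and 274 in the uncloned array and clones 1 and 2 against 30.6 in the control, a change of 2.66 ± 0.40 (adjusted p = 0.0041). Both clones were above the uncloned array, and all 3 above the control. The 11 epithelial markers summed to 297 to 480 in PGC7 arrays and 489 in the control. Of these, 3 were tested, and 2 to 3 were above the filter signal in PGC7 arrays and 3 in the control. Itgb7, whose protein pairs with alpha 4 or alpha E in lymphocytes, had 449, 728 and 475 against 96.2 (change 2.38 ± 0.60, adjusted p = 0.0358). That call was lost in 6 of 16 alternatives: with a pseudocount of 1 (adjusted p = 0.101), with no filter (0.0668), with no variance trend (0.0698), without clone 1 (0.0836), without clone 2 (0.0675) and without B16F10 clone 1, whose array adds to the pooled spread (0.0634). The change was 2.09 to 2.77 over the 16 alternatives.

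The remaining beta subunits were not called. Itgb1, the common partner of most alpha subunits, had 3143, 2408 and 2652 in the uncloned array and clones 1 and 2 against 2576 in the control (1426918_at, change 0.08 ± 0.19, adjusted p = 0.835). Its other tested probe sets had changes of 0.14 and 0.21, and neither was called. Itgb8, a further partner of alpha v that frees latent TGF-beta, had 211, 308 and 450.5 against 231, with the control inside the range of the PGC7 arrays.

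**Figure D2:**
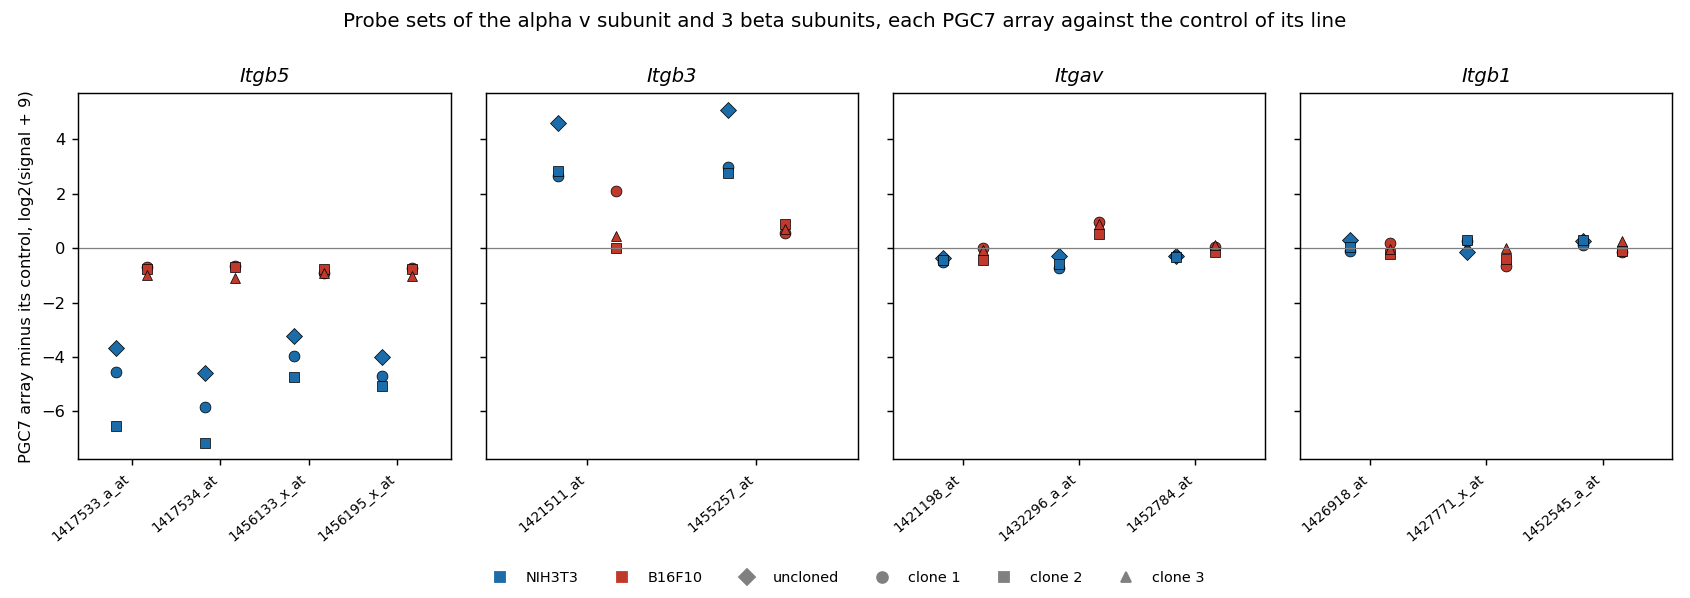
Difference of each PGC7 array from the control of its line on the log2(signal + 9) scale (y axis) for every tested probe set (x axis) of Itgb5, Itgb3, Itgav and Itgb1, with NIH3T3 in blue and B16F10 in red and symbols for the uncloned array and clones. In NIH3T3 the 4 Itgb5 probe sets lie between -7.15 and -3.22 and both Itgb3 probe sets above 0 on all 3 arrays, while Itgav and Itgb1 stay near 0.

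Among alpha subunits, Itga6, the alpha chain of the alpha 6 laminin receptors, had the smallest adjusted p of the 27 genes. At 1422445_at its signal was 7052, 6144 and 6707 in the uncloned array and clones 1 and 2 against 1297 in the control, a change of 2.34 ± 0.16 (adjusted p = 0.000121). The second probe set, 1422444_at, had 4913, 4622 and 4843 against 768 and was called too (change 2.63 ± 0.20, adjusted p = 0.000241). The 3 PGC7 arrays lay close together at both probe sets, far from the control.

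Itga5 codes for the fibronectin receptor subunit alpha 5. It had 2694, 2300.5 and 2663 in the uncloned array and clones 1 and 2 against 883 in the control (1423267_s_at, change 1.52 ± 0.37, adjusted p = 0.0325). Of its other tested probe sets, 1423268_at was called (1.81 ± 0.48, adjusted p = 0.0407) and 1458996_at was not (0.66 ± 0.61, adjusted p = 0.53). The call at the first was lost in 6 of 16 alternatives, among them those without clone 1 (adjusted p = 0.0602), clone 2 (0.0754) and B16F10 clone 3 (0.051), with changes of 1.37 to 1.81 throughout. Itga8, the subunit of the nephronectin receptor, had 1511, 2845 and 3186 against 857 and was not called (change 1.47 ± 0.52, adjusted p = 0.102), with the clones above the uncloned array.

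Itgav, the alpha v gene, had 6120.1, 6159 and 5884 in the uncloned array and clones 1 and 2 against 7460.1 in the control (1452784_at, change -0.30 ± 0.12, adjusted p = 0.141). The control was the highest of the 4 arrays at all 3 tested Itgav probe sets, with changes of -0.43, -0.53 and -0.30, none called. Itga2b, the platelet partner of beta 3, was not called at 379, 338 and 389.8 against 531 (change -0.52 ± 0.30). Itga3, a laminin receptor subunit, was high in the uncloned array alone, at 863, with 295 and 284 in the clones and 411 in the control. Other alpha genes were at low signals: Itga1, Itga2 and Itga10, collagen receptor subunits, and Itgae, which pairs with beta 7, had 26.8 to 132 over the 4 NIH3T3 arrays. Itga9 had 21 to 57.4, Itga4 had 2.46 to 25.9, and none of these 6 was called. The probe sets of the last 2 differed in direction, none called. Itga9 changed by -0.55 at 1460285_at and 0.75 at 1450029_s_at. Itga4 changed by 0.31 at 1436037_at, 0.01 at 1421194_at and -0.54 at 1456498_at.

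Cdh11, OB-cadherin of mesenchymal cells, had 491, 118 and 57.3 in the uncloned array and clones 1 and 2 against 5315 in the control at 1450757_at. The change of -5.04 ± 0.93 had the lowest value of the 27 genes (adjusted p = 0.0102), and the clones were again below the uncloned array. With the 4 NIH3T3 arrays alone its adjusted p was 0.0572. The second probe set, 1435120_at, had 41.2, 40.4 and 22.8 against 192 and was not called (change -2.23 ± 0.63, adjusted p = 0.0534). The summed fibroblast markers given above were also lower in the PGC7 arrays, and their part in this change was not tested.

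Cdh13, T-cadherin, is held in the membrane by a lipid anchor and lacks the catenin-binding tail. It rose at 1434115_at, with 47.1, 48.8 and 57.6 in the uncloned array and clones 1 and 2 against 3.04 in the control (change 2.32 ± 0.34, adjusted p = 0.00378, 0.0518 with the NIH3T3 arrays alone). The change was 3.68 with a pseudocount of 1, 1.24 with one of 32 and 1.35 in the values as deposited, called in each. The other tested probe set, 1423551_at, went the other way and was not called, with 37.8, 7.99 and 6.92 against 27.2 (change -0.63 ± 0.60, adjusted p = 0.541). The direction for Cdh13 in this line therefore rests on 1 probe set with signals near the filter.

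Cdh2, N-cadherin, was not called at its brighter probe set, with signals of 1095, 1307 and 1156 in the uncloned array and clones 1 and 2 against 1399 in the control at 1418815_at (change -0.24 ± 0.14, adjusted p = 0.302). Its second probe set, 1449244_at, was called lower at -0.63 ± 0.17 (adjusted p = 0.0497), with 655, 803 and 719 against 1123. The control was the highest array at both. Cdh1, E-cadherin of epithelia, Cdh10 and Cdh19 had at most 37.2 on any NIH3T3 array at their brightest probe sets, and Cdh15, M-cadherin of muscle, and Cdh22 had 46.1 to 88.9, none of them called. The other tested Cdh10 probe set, 1433302_at, was brighter in this line, at 78.4, 28.9 and 63.3 in the uncloned array and clones 1 and 2 against 52 in the control, and was not called either. Cdh26 did not pass the filter, but its only probe set (1456937_at) had 2.01, 12.6 and 20.6 in the uncloned array and clones 1 and 2 against 377 in the control. When no filter was used it was called lower in NIH3T3 (change -4.33 ± 0.70, adjusted p = 0.00992), and it was named after its values were seen.

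In B16F10 a single integrin or cadherin gene was called. Itgb2 rose, as 1 of 27 tested genes, and 0 fell by limma, against 1.19% of all tested probe sets called, 0.923% higher and 0.265% lower. At an unadjusted p under 0.05, 2 genes were higher and 0 lower. Counts at that threshold are given here and below without the share of all tested probe sets, so they describe the genes alone. The median change was -0.01 over alpha, 0.35 over beta and 0.71 over cadherin genes, against 0.02 over all tested probe sets. Taken over probe sets, it was 0.1 for alpha, -0.02 for beta and 0.68 for cadherin ones.

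**Figure D3:**
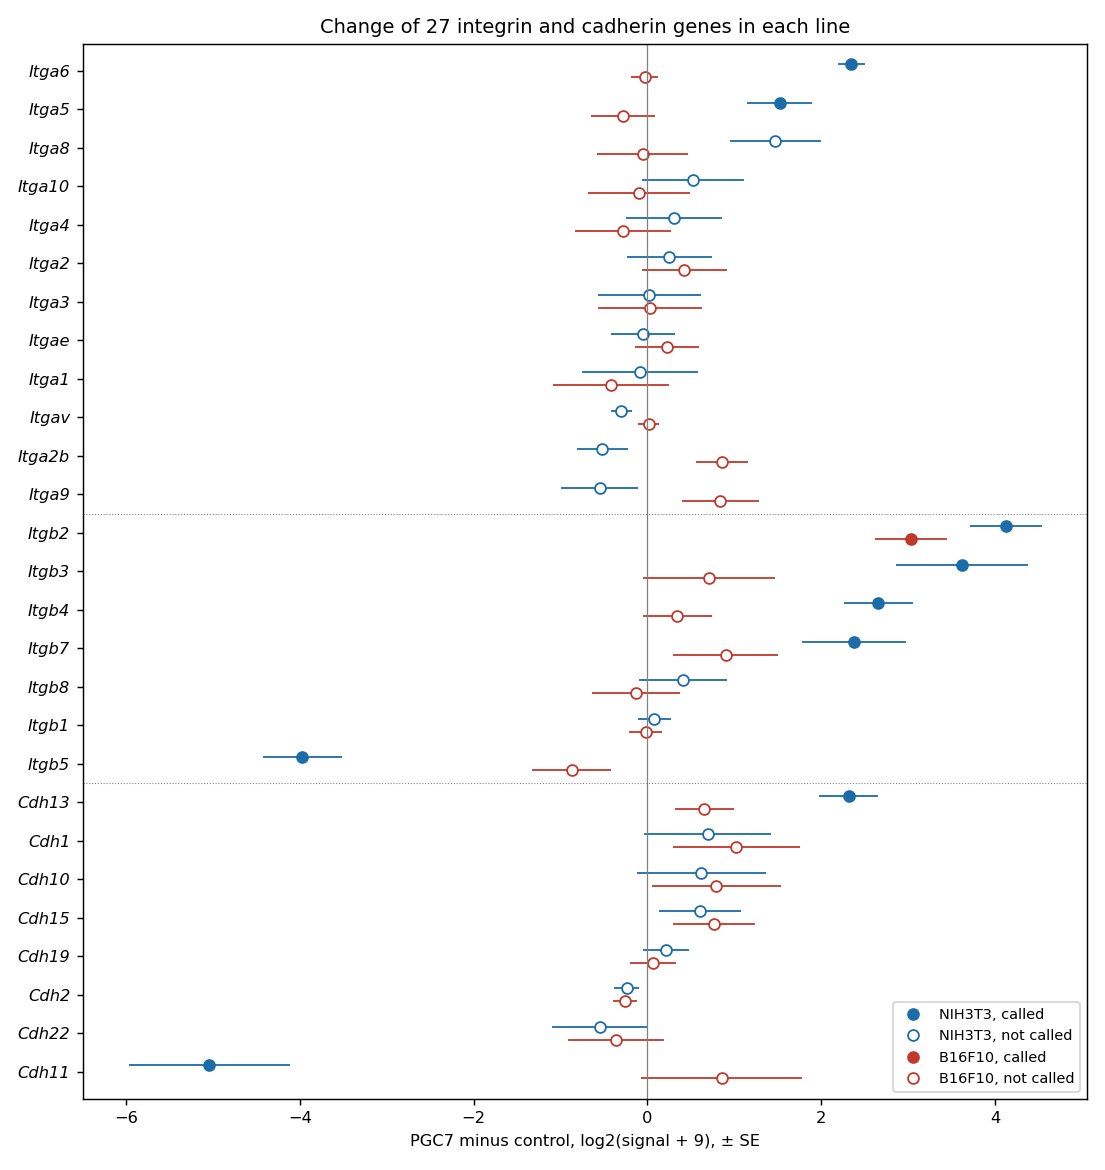
PGC7 minus control on the log2(signal + 9) scale with its standard error (x axis) for the 27 tested genes (y axis), alpha genes on top, then beta genes and cadherins, with NIH3T3 in blue and B16F10 in red. Filled points were called: 9 genes in NIH3T3 and Itgb2 alone in B16F10.

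The Itgb2 signal was 79.6, 65 and 94.4 in clones 1, 2 and 3 against 1.72 in the B16F10 control, a change of 3.03 ± 0.42 (adjusted p = 0.0164). All 3 clones were above the control, at signals below those of the NIH3T3 PGC7 arrays. Without clone 1 the adjusted p was 0.0687 and without clone 3 it was 0.0718, with the change at 3.03 and 2.92. Over all 15 alternatives the change was 1.72 to 4.87, lowest with a pseudocount of 32. The leukocyte markers summed to 263 to 341 in the clones and 193 in the control, with 2 to 3 and 1 of them above the filter signal. The brightest, Cd68, had a mean of 74.8 in the clones against 66.5 in the control. Ptprc had 0.578, 1.29 and 14.9 against 0.711, near the bottom of the scale in both groups. The part of leukocytes in the Itgb2 signal was not tested in this line either.

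Itgb5 had 576, 639 and 573 in B16F10 clones 1, 2 and 3 against 1095 in the control. All 3 clones were lower, and at the 4 probe sets the changes were -0.82, -0.82, -0.87 and -0.85, none called on 8 arrays (adjusted p = 0.419 at 1456133_x_at). With the 4 B16F10 arrays alone the same change was called (adjusted p = 0.0126). Itgb3 had 254, 318 and 279 against 170.1 (change 0.70 ± 0.76, adjusted p = 0.728, 0.0807 with the B16F10 arrays alone).

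Alpha genes in B16F10 included Itgav at 6245, 5464 and 6525 in clones 1 to 3 against 6009 in the control, and Itga6 at 2777, 3244 and 2495 against 2886. At these brightest probe sets the control lay within the range of the clones. At the other Itga6 probe set, 1422444_at, clones 1 to 3 had 1469, 1610 and 1083 against 1818 (change -0.41). The other tested Itgav probe sets differed in direction. Clones 1 to 3 had 37.1, 25.5 and 34.7 against 15 at 1432296_a_at (change 0.78). At 1421198_at they had 142, 102 and 136 against 143 (change -0.18). None of these changes was called. Itga4, which binds Vcam1 and fibronectin, had 689, 813 and 803 against 932 (change -0.28 ± 0.55). Its other tested probe sets changed by 0.17 (1421194_at) and -0.62 (1456498_at), neither called. Itga2b had 80.3, 99.1 and 128 against 51.7 (change 0.85 ± 0.30, adjusted p = 0.222) and Itga9, a tenascin receptor subunit, 150.2, 136 and 173 against 81.2, all 3 clones above the control in each but neither called.

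Among cadherins of the melanoma line, Cdh19, known from the neural crest and Schwann cell lineage, had 1916, 1995 and 2166 in clones 1 to 3 against 1935 in the control (change 0.06 ± 0.27). Cdh2 had 4133, 4077 and 3680.0 against 4726 (change -0.26 ± 0.14, adjusted p = 0.444), with all 3 clones below the control. Cdh13 had 299, 242 and 345 against 183 and Cdh1 97.4, 85.7 and 130.3 against 46.1, all 3 clones above the control in both and neither called. For these uncalled genes the place of the lone control is a value without an array-wide share beside it. Cdh11 stayed at the bottom of the scale, at 10.6, 13 and 3.84 against 0.785.

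Whether a change differed between the lines was tested as the NIH3T3 change minus the B16F10 change. The difference was called for 4 of 27 genes, against 6.88% of all tested probe sets (3.08% higher and 3.8% lower). Itga6 (2.38 ± 0.22, adjusted p = 0.00133) and Itgb4 (2.31 ± 0.56, adjusted p = 0.0451) had the higher change in NIH3T3, and Itgb5 (-3.10 ± 0.64, adjusted p = 0.027) and Cdh11 (-5.90 ± 1.31, adjusted p = 0.0336) the lower one. The difference was not called at Itgb5 probe set 1417533_a_at (-4.10, adjusted p = 0.081) or at Cdh11 probe set 1435120_at (-2.99, adjusted p = 0.0855). The call for Itgb4 was lost in 9 of 15 alternatives, for Cdh11 in 6 and for Itgb5 in 5, each time also without NIH3T3 clone 1 and without any 1 of the B16F10 clones. For Itgb2 the difference was 1.09 ± 0.59 (adjusted p = 0.316) and for Itgb3 2.91 ± 1.08 (adjusted p = 0.15), so a difference between the lines was not shown for either.

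Within NIH3T3 the uncloned array and the 2 clones are given by value, and no test between them was run. The mean of clones 1 and 2 minus the uncloned array was -2.45 for Cdh11, -2.21 for Itgb3, -1.55 for Itga3 and -1.12 for Itgb5 on the log2 scale. It was 0.99 for Itga8, 0.71 for Itgb4, 0.51 for Itgb2 and 0.38 for Itgb7, and -0.14 and -0.12 for Itga6 and Itga5. By value the gaps were wider for Cdh11 and Itgb3 than for Itga6 and Itga5.

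The lines themselves differed in most of the 27 genes, as in most of the array. Averaged over control and PGC7 groups, 12 of the 27 genes were higher in NIH3T3 and 8 lower, 74.1% in all. Of all tested probe sets 71.5% were called, 42% higher and 29.6% lower, so the share was close to that of the array. NIH3T3 had the higher signal for Itga5, Itga8, Itga3, Itgb7, Itgb8 and Cdh11, and B16F10 for Cdh19, Itga4, Cdh13, Cdh10, Cdh1, Cdh2, Itgb3 and Itga9, with other probe sets of Cdh10 and Itgb3 running the other way. As deposited, without rescaling, the median over all probe sets was -1.30, against 0.24 after it, and the split was 7 higher and 15 lower. With poly-A spike scaling the split was 10 and 10.

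**Figure D4:**
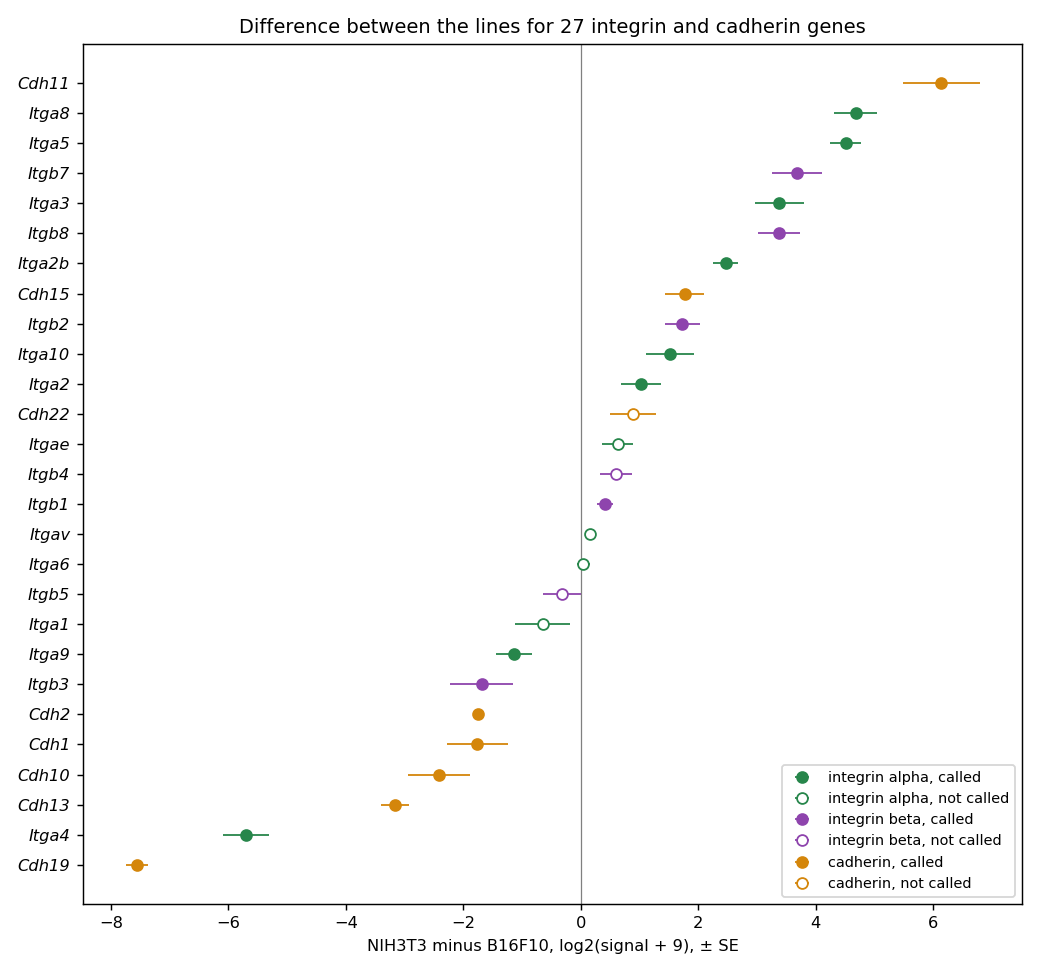
NIH3T3 minus B16F10 on the log2(signal + 9) scale with its standard error (x axis) for the 27 tested genes (y axis), averaged over the control and PGC7 groups of each line, with filled points called. Cdh11 is at the NIH3T3 end at 6.14 and Cdh19 at the B16F10 end at -7.56.

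On the NIH3T3 side Itga8 had 1511, 2845 and 3186 in the uncloned array and clones 1 and 2 and 857 in the control, against 43.2, 27.3 and 79.1 in B16F10 clones 1 to 3 and 48.3 in their control (difference 4.68 ± 0.37, adjusted p = 7.3e-06). Itga5 differed by 4.52 ± 0.26 (adjusted p = 1.34e-06), Itga3 by 3.38 ± 0.42 (adjusted p = 0.000118) and Itgb8 by 3.38 ± 0.36 (adjusted p = 4.4e-05). For each of these 4 genes the lowest NIH3T3 array was above the highest B16F10 array. The 4 were already called, and the share of all tested probe sets with such a gap was not counted. Itga2b was higher too (2.47 ± 0.21, adjusted p = 1.17e-05), as were, at low signals, Cdh15 (1.77), Itga10 (1.52) and Itga2 (1.03). The Itga10 call was lost as deposited (0.22, adjusted p = 0.605) and under quantile normalization (0.86, adjusted p = 0.117). The Itga2 call was lost under poly-A spike scaling (adjusted p = 0.109), with no filter (0.0652) and with the clone number as a block (0.0734). Itgb7 (3.68) and Itgb2 (1.73) were higher as well, Itgb2 not as deposited (0.58, adjusted p = 0.0736).

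On the B16F10 side Cdh19 was at 0.776 to 2.59 on the 4 NIH3T3 arrays (difference -7.56 ± 0.19, adjusted p = 1.88e-08), the bottom of the scale. Itga4 differed by -5.70 ± 0.39 (adjusted p = 3.25e-06), and its 3 tested probe sets had the same direction. Cdh2, present in both lines, was higher in B16F10 by both probe sets (-1.74 and -1.01). Cdh13 (-3.16 and -2.98) and Itga9 (-1.14 and -3.92) were each lower in NIH3T3 at both tested probe sets. The probe sets of Cdh10 disagreed, at -2.41 and 2.23, both called, and Cdh1 was at -1.76. Those of Itgb3 also differed in sign, at -1.69 ± 0.54 (adjusted p = 0.0201) for 1455257_at and 1.48 ± 0.68 (adjusted p = 0.0779) for 1421511_at. At 1455257_at the PGC7 arrays averaged 321 ± 312 in NIH3T3 and 284 ± 32.5 in B16F10 (SD, n = 3 each), and the controls had 11.3 in NIH3T3 and 170.1 in B16F10. With a pseudocount of 32 that call was lost (adjusted p = 0.0504). Of the 4 Itgb5 probe sets 1 was called, 1456195_x_at, at -1.15.

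Among the subunits with high signals in both lines were Itgav, Itgb1 and Itga6. Itgb5 was high in both controls too, at 2589.7 in NIH3T3 and 1095 in B16F10. At its brightest probe set Itgav had 5884 to 7460 on the NIH3T3 arrays and 5464 to 6525 on the B16F10 arrays (difference 0.15 ± 0.09, adjusted p = 0.133). The other tested Itgav probe sets were called higher in NIH3T3, by 3.05 and 3.47, so the probe sets of the gene disagreed. Itgb1 was higher in NIH3T3 by 0.41 ± 0.14 (adjusted p = 0.0226) but lower, at -1.13, in the values as deposited, so its direction went with the scaling. Its other tested probe sets were higher in NIH3T3 as well, by 1.23 and 1.93. Itga6 had no called difference between the lines as averaged (0.04 ± 0.11), its NIH3T3 control lying below and its NIH3T3 PGC7 arrays above all B16F10 arrays.

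The ligands of these receptors changed in both directions in NIH3T3. Of 22 tested ligand genes 6 rose and 6 fell, with a median change of -0.03 against -0.07 over all tested probe sets. For this list and those below, the array-wide shares were 6.47% called higher and 6.32% lower in NIH3T3. In B16F10 they were 0.923% and 0.265%. No count of a list was tested against these shares. The largest changes were those of Postn, periostin (57.4, 85.3 and 60.2 in the uncloned array and clones 1 and 2 against 3406 in the control, change -5.50 ± 0.31), the collagen gene Col1a1 (-5.50 ± 0.43), Thbs1, thrombospondin (-5.19 ± 0.43), and Nid2, a basement membrane nidogen (-4.25 ± 1.07). All 4 of these were lower. In B16F10, 1 of the 22 rose and 0 fell by limma (2 and 2 at an unadjusted p under 0.05): Npnt, nephronectin, had 791, 949 and 916 in clones 1, 2 and 3 against 189 in the control (change 2.17 ± 0.29, adjusted p = 0.0156).

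Of 22 cytoplasmic partners of integrins, 5 rose and 3 fell in NIH3T3 (median -0.16). Parvb, which codes for beta-parvin, a link from integrin-linked kinase to actin, had 1374, 1235 and 1481 in the uncloned array and clones 1 and 2 against 212 in the control (change 2.63 ± 0.15, adjusted p = 6.25e-05). Tln2, talin 2, fell (-0.95 ± 0.25, adjusted p = 0.0426), Itgb1bp1, a binder of the beta 1 tail, rose (0.94 ± 0.15) and so did the actinin gene Actn4 (0.81 ± 0.12). In B16F10, 0 of these 22 were called by limma in either direction. At an unadjusted p under 0.05, 0 were higher and 9 lower, with no array-wide share at that threshold to set them against. The median was -0.30 against 0.02 over all tested probe sets.

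Of 9 tested catenin genes, 3 rose and 1 fell in NIH3T3: Pkp2, a desmosomal plakophilin (1.64 ± 0.35), Ctnnal1 (1.12 ± 0.29), Pkp4 (0.93 ± 0.16) and, falling, Arvcf, a p120-type catenin (-1.44 ± 0.34). In B16F10, 0 were called, with 0 higher and 1 lower at an unadjusted p under 0.05. Of 9 tested protocadherin, Fat and desmosomal cadherin genes 3 fell and 0 rose (3 and 1 at an unadjusted p under 0.05) in NIH3T3, Fat4 (-4.27 ± 0.61), Fat1 (-1.80 ± 0.18) and Pcdh19 (-1.27 ± 0.23), and 0 were called in B16F10 (0 at an unadjusted p under 0.05 too). Of 8 transcription factors linked with cadherin switching, Snai2 fell (-0.86 ± 0.16, adjusted p = 0.00977) and Tcf3 rose (0.61 ± 0.14, adjusted p = 0.0267) in NIH3T3, and 0 were called in B16F10 (1 higher at an unadjusted p under 0.05). Of 8 tetraspanins and other integrin-associated genes, Cd9 rose in NIH3T3 (0.84 ± 0.16, adjusted p = 0.0113), and in B16F10 0 were called, with 3 higher and 2 lower at an unadjusted p under 0.05.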

How the data were processed

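The authors deposited linear intensity values, made with MAS5 per the submitters' processing notes, whose version and settings the sources used here do not give. The mean between percentiles 2 and 98 was 500.003 in the 4 B16F10 columns and 143 to 189 in the NIH3T3 columns, so each array was multiplied to 500 (factors 2.65 to 3.49 in NIH3T3). Values were transformed as log2(signal + 9). Of 45101 probe sets, 64 controls and 19801 whose mean log2 value stayed below the overall median (signal 49.3) in each of the lines were removed, leaving 25236. Symbols came from the platform annotation (34958 probe sets with 1 symbol, 932 with several, 9211 with none), and the symbols of all 93 probe sets matched those of RefSeq.

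A model of 4 group means was fitted to all 8 arrays with limma 3.58.1 in R 4.3.3, with an intensity trend in the variance prior, two-sided (8.5 total degrees of freedom, prior and residual together). It was checked on simulated data. Each lone control was taken to vary as PGC7 arrays do. The labels do not say whether clones were grown more than once, so p-values reflect only how far these samples spread. Alternatives covered scaling, pseudocount, filter, variance prior, the arrays fitted and the choice of probe set. Every called member was named with its change and other members by their signals. From each pathway list at most the 4 called genes with the largest change were named. Ptprc, Cd68, Laptm5 and Csf1r, of a marker list, and Cdh26 were named after their values were seen. The members and lists were chosen with earlier results of these data known.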

Additional observations from a re-analysis of the deposited data

Results flagged for a closer look

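The change between control and PGC7 arrays differed between the lines, by the test of the difference itself, for 4 genes. The part of cloning in these differences was not tested. For Itga6 the NIH3T3 change minus the B16F10 change was 2.38, called in 15 of 15 alternatives. It was -3.10 for Itgb5, called in 10 of 15 and lost without NIH3T3 clone 1, without each B16F10 clone in turn and with no variance trend (highest adjusted p 0.0785). For Cdh11 the value was -5.90, called in 9 of 15 and lost in the same 5 fits and with no filter (highest adjusted p 0.0869). Itgb4 had 2.31, called in 6 of 15 and lost as deposited, with a pseudocount of 1, with no filter, with no variance trend and without any 1 of the 5 clones (highest adjusted p 0.0971). No reversal of direction was seen among these 60 values. Groups of 3 and of 1 array are too small for a test of outlying arrays.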

How the results depend on the processing

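Of the NIH3T3 calls, 127 of 144 gene values under the alternatives kept their call, 17 lost it and 0 reversed. The count was 15 over all 47 member probe sets, against 9 over genes, and 7 to 11 without 1 array. Left out of a fit of NIH3T3 arrays alone, an alternative chosen after seeing the data, the uncloned array gave 11. In B16F10 the count of 1 became 0 with a pseudocount of 32 (2 at an unadjusted p under 0.05) and with no variance trend (3 unadjusted), 2 with its arrays alone, and 0 to 1 without 1 array (2 to 5 unadjusted). Between the lines' changes the count of 4 became 7 over all probe sets, 2 as deposited, 8 with poly-A spike scaling, 2 with no filter, 1 with no variance trend and 1 to 7 without 1 array. Between the lines 36 of 47 probe sets were called, against 20 of 27 genes, and 20 to 23 genes without 1 array. Itgb1 reversed to -1.13 as deposited. The cause of these shifts was not tested, apart from fewer arrays or other features counted. Over all probe sets the median change was 0.21 in NIH3T3 (-0.07 in the main setting) and -0.47 in B16F10 (0.02) under poly-A spike scaling, and -0.19 in NIH3T3 as deposited. Without the uncloned array 6124 of all probe sets were called in NIH3T3, against 3229 with it. Clone numbers are shared across the lines by 2 pairs whose deviations correlated at 0.01 and -0.10. With the number as a replicate block the counts were 21 between the lines and 7 between their changes. Within a line the control shares no clone number, so no block applied there. Signals near or under 49.3 limit the cadherins most, 13 of 21 of which were not tested.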
